A study of Mus musculus with 16 samples.

Results

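The genes described here encode the respiratory chain subunits that are made from nuclear DNA, in 2 stages of terminal red cell formation in mouse bone marrow. They were taken by name from the gene names of the deposited counts: *Nduf* names of the a, b, c, s and v series (complex I), *Sdha* to *Sdhd* (complex II), *Uqcr* names (complex III), *Cox4* to *Cox8* names (complex IV) and *Atp5* names (complex V, the ATP synthase), without pseudogene and Rik names, and with at least 10 counts over all libraries. Of 85 matching entries 77 reached the minimum, out of 46078 genes listed and 13318 with at least 10 counts. By their known place, 35 encode subunits of complex I, 4 of complex II, 8 of complex III, 13 of complex IV (with *Ndufa4*, which is now placed there) and 15 of complex V. The remaining 2, *Atp5s* and *Atp5sl*, encode factors that are not subunits. The 8 entries under the minimum were *Ndufa4l2*, *Cox4i2*, *Cox6a2*, *Cox7a1*, *Cox7b2*, *Cox8b*, *Cox8c* and a second *Uqcrc1* entry.

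The chain passes electrons from NADH and succinate to oxygen through complexes I to IV and pumps protons across the inner mitochondrial membrane, and complex V uses the return of the protons to make ATP. A few catalytic subunits come from mitochondrial DNA, and all others, with every subunit of complex II, come from the nucleus and are imported. Erythroblasts need mitochondria for heme and iron-sulphur cluster synthesis. They clear them, with the other organelles, as the cell matures past the loss of its nucleus, so that red cells end with no respiratory chain.

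Polychromatic erythroblasts (Poly-E) and orthochromatic erythroblasts (Ortho-E, the last nucleated stage) were sorted from bone marrow by CD44 and Ter119 after exclusion of dead cells. The mice were *Ypel4*+/+ or *Ypel4*−/−, and the labels give them all 1 strain name, with C57BL/6N as the background, tm1Brd as an allele of *A*, tm1a(EUCOMM)Wtsi as the allele of *Ypel4* and WtsiIeg as the colony. The null allele is a conventional trap that is present in every tissue and whose splice acceptor interrupts the transcript of *Ypel4*, a gene of the conserved YPEL family. No treatment was given, and the age of the mice is not given in the sources used here. There were 4 libraries in each of the 4 groups, with 2670173 to 12451234 counts per library. *Ypel4* itself was at 577 ± 105 CPM (counts scaled to library size, with TMM factors; SD, n = 4) in *Ypel4*+/+ and 15.9 ± 5.69 CPM (n = 4) in *Ypel4*−/− Poly-E cells, and at 4965 ± 505 and 205 ± 22.4 CPM (n = 4 each) in Ortho-E cells.

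Levels are given in CPM scaled by TMM, which sets the bulk of genes equal between libraries. This choice matters here. The 10 genes with most counts took 12.8% ± 0.760 (SD, n = 4) of all counts in *Ypel4*+/+ Poly-E and 23.3% ± 0.825 (n = 4) in *Ypel4*+/+ Ortho-E libraries, and the mean TMM factors were 1.51 and 0.637. Changing from TMM to library totals moved the median log2 fold change of all genes between the populations by −1.26 in *Ypel4*+/+ and by −1.39 in *Ypel4*−/− mice. Most changes between the populations in *Ypel4*+/+ mice are therefore also given by library totals. In bulk RNA, fewer cells of a type and less RNA per cell cannot be told apart, nor can less of one RNA from more of the others.

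Replicates 1 and 2 stood apart from replicates 3 and 4 in 3 of the 4 groups, and the labels name no batch for this. *Ypel4*−/− Ortho-E replicate 2 lay with replicates 3 and 4 for some genes. Over 5956 genes its deviations from the group mean correlated weakly with those of the *Ypel4*−/− Poly-E replicates. From Poly-E replicate 1 to 4, r was −0.171, 0.0862, 0.0394 and 0.0516. Erythroid markers summed to 9.62 to 10.9% of counts in *Ypel4*+/+ Poly-E and 16.9 to 19.8% in *Ypel4*+/+ Ortho-E libraries, and all 12 listed markers were detected in every group. Of the markers of other cells, myeloid genes summed to at most 0.00131% of counts in any library (15 genes, *Ly6g* at 0 in every group). Macrophage genes (11 found) summed to at most 0.0165%, lymphoid genes (16, *Cd3e* at 0 in every group) to at most 0.0105% and megakaryocyte and platelet genes (8, *Gp1bb* at 0 in every group) to at most 0.0119%. The last were at 0.00776 to 0.0101% in *Ypel4*+/+ Poly-E and 0.0103 to 0.0116% in *Ypel4*+/+ Ortho-E, while the macrophage sum fell from 0.0133 to 0.0155% to 0.00746 to 0.00806%. Gene by gene the macrophage list did not follow its sum. Of 8 tested, 4 were called higher (edgeR) in *Ypel4*+/+ Ortho-E and 0 lower with TMM, with a median log2 fold change of 1.15. By totals 0 were higher and 1 lower, with a median of −0.13. Of 5 tested myeloid genes 2 were higher and 0 lower with TMM, and 1 and 0 by totals. The part of the markers of other cells in the results was not tested.

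The summed counts of all 77 genes made up 0.546% ± 0.0303 (SD, n = 4) of a *Ypel4*+/+ Poly-E library and 0.248% ± 0.00771 (n = 4) of a *Ypel4*+/+ Ortho-E library, so that the Ortho-E share was 45.4% of the Poly-E share. In *Ypel4*−/− mice the shares were 0.586% ± 0.0417 and 0.234% ± 0.00973 (n = 4 each), a ratio of 40.0%. The groups of the 2 populations did not overlap. Complex II kept the least, with 25.2% of its Poly-E share in *Ypel4*+/+ and 26.0% in *Ypel4*−/− mice, and complex III the most, with 55.6% and 46.1%. Complexes I, IV and V lay between, at 44.0%, 46.4% and 44.6% in *Ypel4*+/+ mice. After TMM scaling the summed CPM of all 77 genes was 3612 ± 196 in *Ypel4*+/+ Poly-E and 3902 ± 202 in *Ypel4*+/+ Ortho-E cells (SD, n = 4 each), or 1.08 times as high. In *Ypel4*−/− mice the sums were 3732 ± 303 and 3543 ± 280.4 CPM, or 0.949 times as high. Complex II stayed lower, with 128.8 ± 7.66 and 77.3 ± 5.46 CPM in *Ypel4*+/+ mice, and complex III was 1.32 times as high in *Ypel4*+/+ and 1.09 times in *Ypel4*−/− Ortho-E cells.

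**Figure D1:**
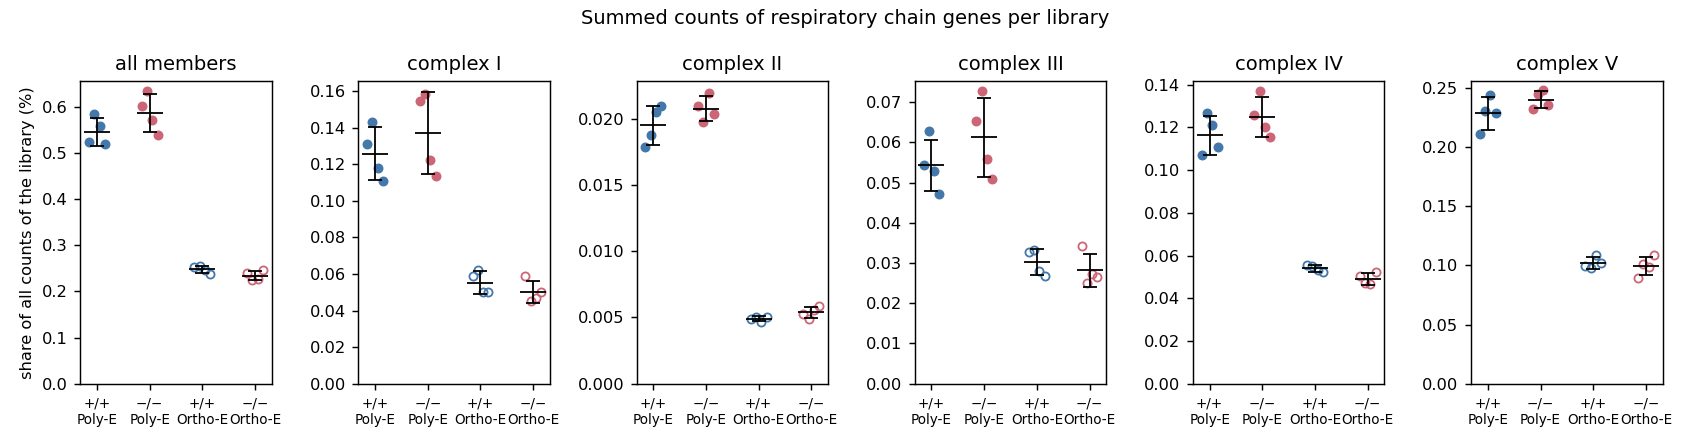
Share of all counts of a library (percent, from 0) taken by the 77 genes and by each complex, in the 4 groups of 4 libraries; points are libraries and bars the mean with the SD. The Ortho-E libraries lie below the Poly-E libraries in each complex, with complex II at 25.2% of its Poly-E share in *Ypel4*+/+ mice and complex III at 55.6%; with TMM scaling the summed level of all 77 genes is 1.08 times as high in *Ypel4*+/+ Ortho-E as in *Ypel4*+/+ Poly-E and 0.949 times in *Ypel4*−/− mice.

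Gene by gene, the 77 genes changed in both directions between the populations with TMM scaling. Of the 77 genes in *Ypel4*+/+ mice 12 were higher and 23 lower in Ortho-E than in Poly-E, and 42 did not pass the threshold (edgeR's quasi-likelihood test, Benjamini-Hochberg adjustment over 11747 genes, threshold 0.05). This has to be read against all genes: 58.5% were called in this comparison, 26.4% higher and 32.1% lower. The median log2 fold change of the 77 genes was −0.14 and that of all genes −0.19, and 43 of the 77 lay above the latter and 34 below. By library totals 1 was higher and 69 lower, with medians of −1.43 for the 77 genes and −1.45 for all genes, where 10.4% of all genes were called higher and 60.3% lower. The spread among the genes was the same under both scalings: the highest and the lowest log2 fold change were 3.99 apart with TMM and 3.97 apart by totals. The groups did not overlap for 10 of the 77 genes that were higher and 23 that were lower in Ortho-E cells. Of all genes, 22.6% were higher and 30.6% lower without overlap. With the mouse as a block 16 were higher and 27 lower.

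In *Ypel4*−/− mice 12 of the 77 genes were higher in Ortho-E, 31 were lower and 34 were not called, where 61% of all genes were called, 29.5% higher and 31.5% lower. The median was −0.21 for the 77 genes and −0.09 for all genes. By library totals none was called higher (11.2% of all genes were) and 69 were lower (60.9% of all genes were), with medians of −1.63 and −1.47. The groups did not overlap for 6 of the 77 genes that were higher and 35 that were lower. Of all genes, 23.1% were higher and 32.4% lower without overlap, so fewer of the 77 were higher by share. With the mouse as a block 16 were higher and 35 lower. Since the *Ypel4*−/− libraries are other mice, this comparison repeats the first in separate samples: 11 genes were called higher in both genotypes, 22 lower in both, and no gene was called in opposite directions. *Ndufb3* was called higher in *Ypel4*+/+ mice alone and *Ndufs1* in *Ypel4*−/− mice alone. A further 9 genes were called lower in *Ypel4*−/− mice alone and 1 in *Ypel4*+/+ mice alone. No test of these differences between the genotypes passed.

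**Figure D2:**
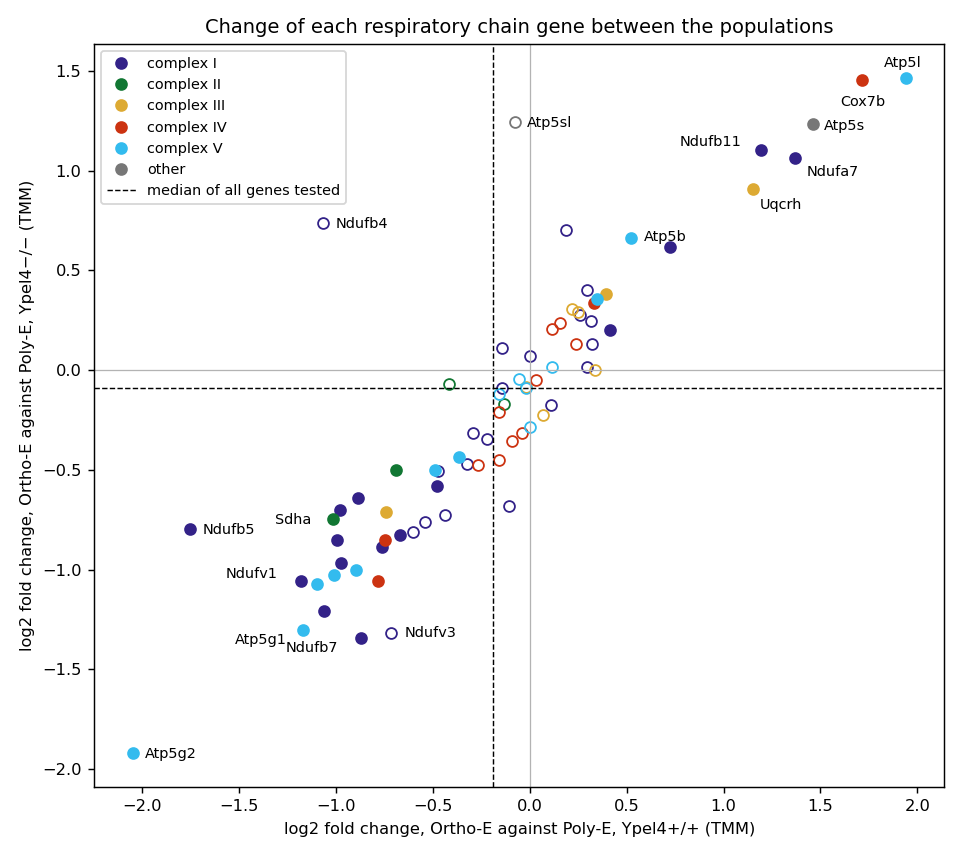
Log2 fold change of each of the 77 genes from Poly-E to Ortho-E in *Ypel4*+/+ (x axis) and *Ypel4*−/− mice (y axis), both with TMM scaling, coloured by complex and filled where called in *Ypel4*+/+ mice; dashed lines mark the median of all genes tested. *Atp5l* and *Cox7b* lie at the upper right and *Atp5g2* at the lower left in both genotypes; by library totals every point would lie lower by about the shift of the median of all genes, −1.26 in *Ypel4*+/+ and −1.39 in *Ypel4*−/− mice, which leaves *Atp5l* alone called higher in *Ypel4*+/+ mice.

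Complex I takes electrons from NADH. Of 6 nuclear core subunits described here, of a core that carries the flavin and the iron-sulphur clusters and meets ubiquinone, 3 fell in Ortho-E cells of *Ypel4*+/+ mice, none rose, and the median was −0.80. In *Ypel4*−/− mice 5 fell and 1 rose, with a median of −0.83. *Ndufv1*, the flavin subunit at which NADH is oxidised (chromosome 19 from 4007497 to 4012806 of GRCm38), was at 55.3, 61, 71 and 66.2 CPM in the 4 *Ypel4*+/+ Poly-E libraries and at 25.8, 23.4, 33 and 26.4 CPM in the 4 *Ypel4*+/+ Ortho-E libraries. Every Ortho-E library lay below every Poly-E library, and the log2 fold change was −1.18 (standard error 0.15, edgeR adjusted p = 8.69e-08), or −2.47 by totals. In *Ypel4*−/− mice *Ndufv1* was at 62.9, 55.9, 74.6 and 67.9 CPM in Poly-E and 20.7, 24.5, 26.9 and 38.4 CPM in Ortho-E cells, again with no overlap.

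Other core subunits differed in their log2 fold change. *Ndufs7*, which carries the last cluster before ubiquinone, fell by 1.06 on the log2 scale (standard error 0.20, edgeR adjusted p = 4.04e-05), from 16.8 ± 2.38 to 7.93 ± 0.461 CPM (SD, n = 4 each), with −2.35 by totals. *Ndufs3*, a core subunit that holds no cluster, changed by −0.99 (edgeR adjusted p = 0.000788; −2.28 by totals). *Ndufv2* and *Ndufs8*, both iron-sulphur subunits, had log2 fold changes of −0.48 and −0.60 that did not pass the threshold in *Ypel4*+/+ mice (edgeR adjusted p = 0.076 and 0.0537). With the mouse as a block they did (−0.46 and −0.60, edgeR adjusted p = 0.00049 and 0.0265), and by totals they were −1.76 and −1.89. *Ndufs1*, the largest subunit and the one with most clusters, stood apart from the rest of the core. It was at 37.9, 40.4, 37.1 and 35.4 CPM in *Ypel4*+/+ Poly-E and 38.4, 41.1, 52.3 and 47.3 CPM in *Ypel4*+/+ Ortho-E libraries, so the groups overlap. Its log2 fold change was 0.30 (edgeR adjusted p = 0.0729; 0.0169 with the mouse as a block, and 0.00341 with DESeq2, at 0.43) in *Ypel4*+/+ and 0.40 (edgeR adjusted p = 0.0103) in *Ypel4*−/− mice, but −0.99 and −1.01 by totals.

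The 28 other subunits of complex I, which surround the core and serve its assembly and stability, had 4 called higher and 7 lower in *Ypel4*+/+ mice (median −0.18) and 3 higher and 10 lower in *Ypel4*−/− mice (median −0.25). *Ndufa7* rose most, from 22.1, 28.8, 15.8 and 15.3 CPM in *Ypel4*+/+ Poly-E to 69.3, 57.1, 38 and 41 CPM in *Ypel4*+/+ Ortho-E libraries. Replicates 1 and 2 were the higher ones in both populations, and the groups did not overlap. The log2 fold change was 1.37 (standard error 0.23, edgeR adjusted p = 9.34e-05) in *Ypel4*+/+ mice and 1.06 in *Ypel4*−/− mice, and 0.08 and −0.36 by totals, where neither was called. *Ndufb9* had the highest level per kb of exon of all 77 genes, 179 CPM per kb in *Ypel4*+/+ Poly-E and 289.71 CPM per kb in *Ypel4*+/+ Ortho-E cells. Such ranks depend on the length used, which joins all annotated exons of a gene. It is 651 bases for *Ndufb9*, whose longest coding transcript has 704, but 4237 for *Atp5b*, whose longest has 1916. *Ndufb9* rose by 0.73 (standard error 0.18, edgeR adjusted p = 0.00163), but its change was −0.55 by totals, a fall that passed the threshold (edgeR adjusted p = 0.00469). By 75-base sequence words, 20.3% of the *Ndufb9* transcript is shared with other genes.

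*Ndufb11*, an X-linked subunit of the membrane arm, was named after its values were seen, for its tight replicates. It was at 62.9, 55.9, 49.3 and 49.7 CPM in *Ypel4*+/+ Poly-E and 119.56, 131, 117 and 118 CPM in *Ypel4*+/+ Ortho-E libraries. The lowest Ortho-E library was well above the highest Poly-E library, with a log2 fold change of 1.19 (standard error 0.13, edgeR adjusted p = 5.49e-09) that was −0.09 by totals (edgeR adjusted p = 0.539). In *Ypel4*−/− mice the values were 52.2, 65.6, 50.5 and 45.7 CPM in Poly-E and 113, 89.8, 101 and 102 CPM in Ortho-E cells. Of the 3 X-linked genes among the 77, *Ndufb11* and *Cox7b* were called higher in both genotypes and *Ndufa1* in neither. The lowest of the complex was *Ndufb5*, with a log2 fold change of −1.76 in *Ypel4*+/+ mice (edgeR adjusted p = 0.0161; lower by totals too), but it had only 70 counts in all 4 *Ypel4*+/+ Poly-E and 6 in all 4 *Ypel4*+/+ Ortho-E libraries and was not called in *Ypel4*−/− mice.

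Complex II is succinate dehydrogenase, which is also an enzyme of the citric acid cycle and the complex with no mitochondrially encoded subunit. Its 2 catalytic subunits fell and its 2 membrane anchors were not called, in both genotypes. *Sdha*, the flavin subunit that oxidises succinate, was at 65.9, 59.4, 79.7 and 77.7 CPM in *Ypel4*+/+ Poly-E and 28.7, 31.4, 36 and 39.2 CPM in *Ypel4*+/+ Ortho-E libraries. The Ortho-E libraries were all lower, and the log2 fold change was −1.02 (standard error 0.14, edgeR adjusted p = 8.22e-07), or −2.30 by totals. In *Ypel4*−/− mice *Sdha* changed by −0.75 (standard error 0.14, edgeR adjusted p = 3.58e-05). *Sdhb*, the iron-sulphur subunit, was at 23, 25.2, 22.8 and 20.4 CPM in *Ypel4*+/+ Poly-E and 15.6, 11.4, 14.3 and 13.3 CPM in *Ypel4*+/+ Ortho-E libraries, also without overlap (−0.69 (standard error 0.17, edgeR adjusted p = 0.00112); −1.98 by totals). The anchors *Sdhc* and *Sdhd* had log2 fold changes of −0.42 and −0.13 in *Ypel4*+/+ mice (edgeR adjusted p = 0.0645 and 0.579); with the mouse as a block *Sdhc* passed (−0.43, edgeR adjusted p = 0.0393), and by totals both were lower.

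Complex III passes electrons from ubiquinol to cytochrome c, and its nuclear subunits went in different directions: 2 rose, 1 fell and 5 were not called, the same counts in both genotypes, with medians of 0.23 in *Ypel4*+/+ and 0.15 in *Ypel4*−/− mice. *Uqcrh*, the acidic hinge protein that holds cytochrome *c*1 (chromosome 4 from 116066965 to 116075071), was at 122, 125, 80.3 and 68.7 CPM in *Ypel4*+/+ Poly-E and 245, 263, 174 and 177 CPM in *Ypel4*+/+ Ortho-E libraries. The lowest Ortho-E library was above the highest Poly-E library, with a log2 fold change of 1.15 (standard error 0.21, edgeR adjusted p = 0.000399) that was −0.13 by totals and then not called. In *Ypel4*−/− Ortho-E cells it was at 209.64, 143, 187 and 172 CPM, against 130.05, 140.30, 89 and 73.2 CPM in *Ypel4*−/− Poly-E cells. *Uqcrfs1*, the Rieske iron-sulphur protein, went the other way, from 49, 58.1, 55.8 and 51.1 CPM in *Ypel4*+/+ Poly-E to 36.8, 29.7, 26 and 32.6 CPM in *Ypel4*+/+ Ortho-E libraries (−0.74 (standard error 0.14, edgeR adjusted p = 6.47e-05); −2.03 by totals). The core proteins *Uqcrc1* and *Uqcrc2*, which form the matrix side of the complex, had log2 fold changes of −0.02 (edgeR adjusted p = 0.912) and 0.39 (edgeR adjusted p = 0.0187). *Uqcrc2* lost its call without *Ypel4*+/+ Ortho-E replicate 4 (0.34, edgeR adjusted p = 0.0533) and turned to −0.89 by totals.

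Among all iron-sulphur subunits of complexes I to III (7 genes), 4 fell in *Ypel4*+/+ mice and none rose, with a median of −0.69. In *Ypel4*−/− mice 6 fell and 1 rose, with a median of −0.71. Of all genes, 32.1% were lower and 26.4% higher in *Ypel4*+/+ mice, and 31.5% and 29.5% in *Ypel4*−/− mice. These proteins depend on the same mitochondrial cluster synthesis that erythroblasts use on a large scale, but a link of their changes to it was not tested. The group was set by known function and overlaps the core of complex I.

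Complex IV, cytochrome c oxidase, reduces oxygen, and its nuclear subunits surround the mitochondrially encoded core. In *Ypel4*+/+ mice 2 rose, 2 fell and 9 were not called (median −0.04), and in *Ypel4*−/− mice 2 rose, 5 fell and 6 were not called (median −0.21). *Cox7b*, a small X-linked subunit needed for assembly (chromosome X from 106015700 to 106022450), was at 58, 44.7, 34.7 and 28.3 CPM in *Ypel4*+/+ Poly-E and 168, 151, 103 and 107 CPM in *Ypel4*+/+ Ortho-E libraries. Replicates 1 and 2 were higher in both populations, and still no Ortho-E library reached down to a Poly-E library. The log2 fold change was 1.71 (standard error 0.23, edgeR adjusted p = 3.93e-05), and 0.44 by totals (edgeR adjusted p = 0.0597). In *Ypel4*−/− mice it was at 50.1, 62.8, 34.8 and 27.4 CPM in Poly-E and 136, 81.6, 102 and 96.5 CPM in Ortho-E cells (1.45 (standard error 0.24, edgeR adjusted p = 0.000207); 0.03 by totals).

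*Cox5a*, which binds the regulator of the oxidase on the matrix side, fell from 11.4 ± 2.86 to 6.37 ± 1.03 CPM (SD, n = 4 each; −0.78 (standard error 0.24, edgeR adjusted p = 0.0059); −2.07 by totals), but lost its call without *Ypel4*+/+ Poly-E replicate 2 (−0.56, edgeR adjusted p = 0.0518). It also shares 38.7% of its exonic bases with another gene, and read pairs over both were not counted. *Cox4i1*, the subunit through which ATP is known to slow the oxidase, and *Cox5b*, which binds zinc, had log2 fold changes of 0.11 (standard error 0.31) and −0.04 (standard error 0.14) and were not called. *Cox6a1*, the liver-type form of its subunit, had 173 CPM per kb in *Ypel4*+/+ Poly-E, the highest of the complex, and 188 CPM per kb in *Ypel4*+/+ Ortho-E cells. Its log2 fold change of 0.15 (edgeR adjusted p = 0.315) was 0.29 with DESeq2 (DESeq2 adjusted p = 0.0489) and turned to −1.13 by totals.

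The families of complex IV with tissue-specific forms were read gene by gene. The forms best known from heart and muscle, *Cox6a2*, *Cox7a1* and *Cox8b*, had 3, 3 and 1 counts over all 16 libraries. *Cox4i2*, known from lung, had 7, and *Cox7b2*, *Cox8c* and the *Ndufa4* relative *Ndufa4l2* had 0, with 3 counts as the limit that a count of 0 allows. The ubiquitous partners were all measured, *Cox7a2* at 70.2 ± 6.3, *Cox8a* at 92.3 ± 10.4 and *Ndufa4* at 72.6 ± 8.45 CPM in *Ypel4*+/+ Poly-E cells (SD, n = 4 each). None of these 3 was called between the populations in *Ypel4*+/+ mice. The call of *Cox7a2*, at 0.24, changed with the fit: with the mouse as a block it was 0.25 (edgeR adjusted p = 0.0269), with DESeq2 0.37 (DESeq2 adjusted p = 0.00191) and by totals −1.05. An exception was *Cox6b2*, a form best known from testis, which was at 17.2 to 28.5 CPM in *Ypel4*+/+ Poly-E and 13.1 to 24.3 CPM in *Ypel4*+/+ Ortho-E libraries. Per kb of exon it stood at 19.7 CPM against 96.5 CPM of the ubiquitous *Cox6b1* in *Ypel4*+/+ Poly-E cells. The joined exons of *Cox6b2* and *Cox6b1* are 1108 and 505 bases long, but their longest coding transcripts 585 and 618. Without division by length the levels were 21.9 and 48.7 CPM. *Cox7a2l* was at 47.1, 54.2, 21.7 and 23.1 CPM in *Ypel4*+/+ Poly-E libraries, which shows the split of the replicates better than any change between populations (−0.16, standard error 0.50).

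Complex V makes ATP in a head that is turned by a ring of c subunits in the membrane. In *Ypel4*+/+ mice 3 of its 15 genes rose and 7 fell, and in *Ypel4*−/− mice the counts were the same, with medians of −0.16 and −0.29. *Atp5l*, the g subunit of the membrane part (chromosome 9 from 44913250 to 44920742), had the largest rise of all 77 genes in *Ypel4*+/+ mice. It was at 9.7, 9.48, 10.2 and 8.52 CPM in *Ypel4*+/+ Poly-E and 40.6, 31.4, 34.6 and 35.2 CPM in *Ypel4*+/+ Ortho-E libraries, with every Ortho-E library far above every Poly-E library. The log2 fold change was 1.94 (standard error 0.16, edgeR adjusted p = 6.32e-11), and it was the gene that stayed called higher by totals (0.65, edgeR adjusted p = 0.00115). In *Ypel4*−/− mice it was at 12.2, 14, 10.1 and 9.46 CPM in Poly-E and 26.1, 28.2, 24.9 and 30.9 CPM in Ortho-E cells (1.47 (standard error 0.17, edgeR adjusted p = 2.3e-09)), and the change was 0.05 by totals (edgeR adjusted p = 0.801). Of its 75-base sequence words 76.0% occur in 10 other genes, pseudogenes among them, so read pairs could be lost to or gained from these, and its level is uncertain.

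The genes of the head of the synthase went in different directions. *Atp5b*, the catalytic beta subunit and the gene of the 77 with most counts, was at 465, 459.82, 589 and 539 CPM in *Ypel4*+/+ Poly-E and 714, 633, 765 and 769.83 CPM in *Ypel4*+/+ Ortho-E libraries, without overlap (0.52 (standard error 0.12, edgeR adjusted p = 0.000546); −0.76 by totals, called lower). Its partner in the same ring, the alpha subunit *Atp5a1*, was at 268, 267, 279 and 262 CPM in *Ypel4*+/+ Poly-E and 243, 227, 241 and 229 CPM in *Ypel4*+/+ Ortho-E libraries. These also do not overlap, but lie in the opposite direction, by −0.16 (edgeR adjusted p = 0.228; −1.44 by totals). *Atp5c1*, the central gamma stalk, fell (−0.49 (standard error 0.13, edgeR adjusted p = 0.00244); −1.77 by totals).

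The c ring went down with all of its 3 genes, which encode the same mature protein behind different import sequences. *Atp5g3* was at 80.3, 94.1, 68.9 and 60.4 CPM in *Ypel4*+/+ Poly-E and 34.6, 42.9, 28.3 and 33.8 CPM in *Ypel4*+/+ Ortho-E libraries (−1.10 (standard error 0.16, edgeR adjusted p = 9.05e-07); −2.38 by totals). Every Ortho-E library was lower, and so it was in *Ypel4*−/− mice, with 60.3 to 96.4 CPM in Poly-E and 23.7 to 40.5 CPM in Ortho-E cells. *Atp5g1* and *Atp5g2* were much lower in level, and their changes were −1.17 (edgeR adjusted p = 0.00168) and −2.05 (edgeR adjusted p = 0.000498), with 34 and 11 counts in all 4 *Ypel4*+/+ Ortho-E libraries and −2.45 and −3.31 by totals. *Atp5g3* gave 86.9% of the counts of the 3 genes in *Ypel4*+/+ Poly-E and 89.5% in *Ypel4*+/+ Ortho-E libraries.

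The ratio of *Atp5b* counts to the summed counts of the 3 c ring genes needs no scaling between libraries; it was chosen after the values were seen. The 4 *Ypel4*+/+ Poly-E libraries had 5.08, 4.24, 7.504 and 7.62 *Atp5b* counts per c ring count, and the 4 *Ypel4*+/+ Ortho-E libraries had 19.2, 13.04, 23.2 and 20.6. For *Ypel4*−/− mice the ratios were 4.06, 4.28, 6.99 and 7.996 among Poly-E libraries and 11.6, 26.9, 24.1 and 18.97 among Ortho-E libraries. The populations did not overlap in either genotype, and the genotypes overlapped in both populations. The means were 6.11 ± 1.71 and 19.02 ± 4.32 in *Ypel4*+/+ and 5.83 ± 1.964 and 20.4 ± 6.71 in *Ypel4*−/− mice (SD, n = 4 each). Outside the complexes, *Atp5s*, a factor named for coupling in the synthase, rose from 10.6, 9.29, 10.5 and 10.001 CPM in *Ypel4*+/+ Poly-E to 25.3, 25.7, 25.3 and 31.5 CPM in *Ypel4*+/+ Ortho-E libraries (1.46 (standard error 0.17, edgeR adjusted p = 1.96e-08)), with 0.17 by totals; it was named after its values were seen. *Atp5sl*, an assembly factor of complex I, had 14 counts in all *Ypel4*+/+ Poly-E libraries and was not called.

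A further 13 of the genes called in *Ypel4*+/+ mice are given here by their range, with names chosen after the values were seen. *Cox6c*, *Atp5f1* and *Ndufb3* rose by 0.33, 0.35 and 0.41 on the log2 scale, with −0.96, −0.93 and −0.87 by totals. The 10 that fell lay between −0.37 (*Atp5j*, of the synthase stalk) and −1.01 (*Atp5o*, which joins stalk and head and overlaps other genes with 44.0% of its exonic bases). They included *Atp5d*, the delta subunit of the head, at −0.90, and *Cox7c*, of complex IV, at −0.75, and all were lower by totals too.

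**Figure D3:**
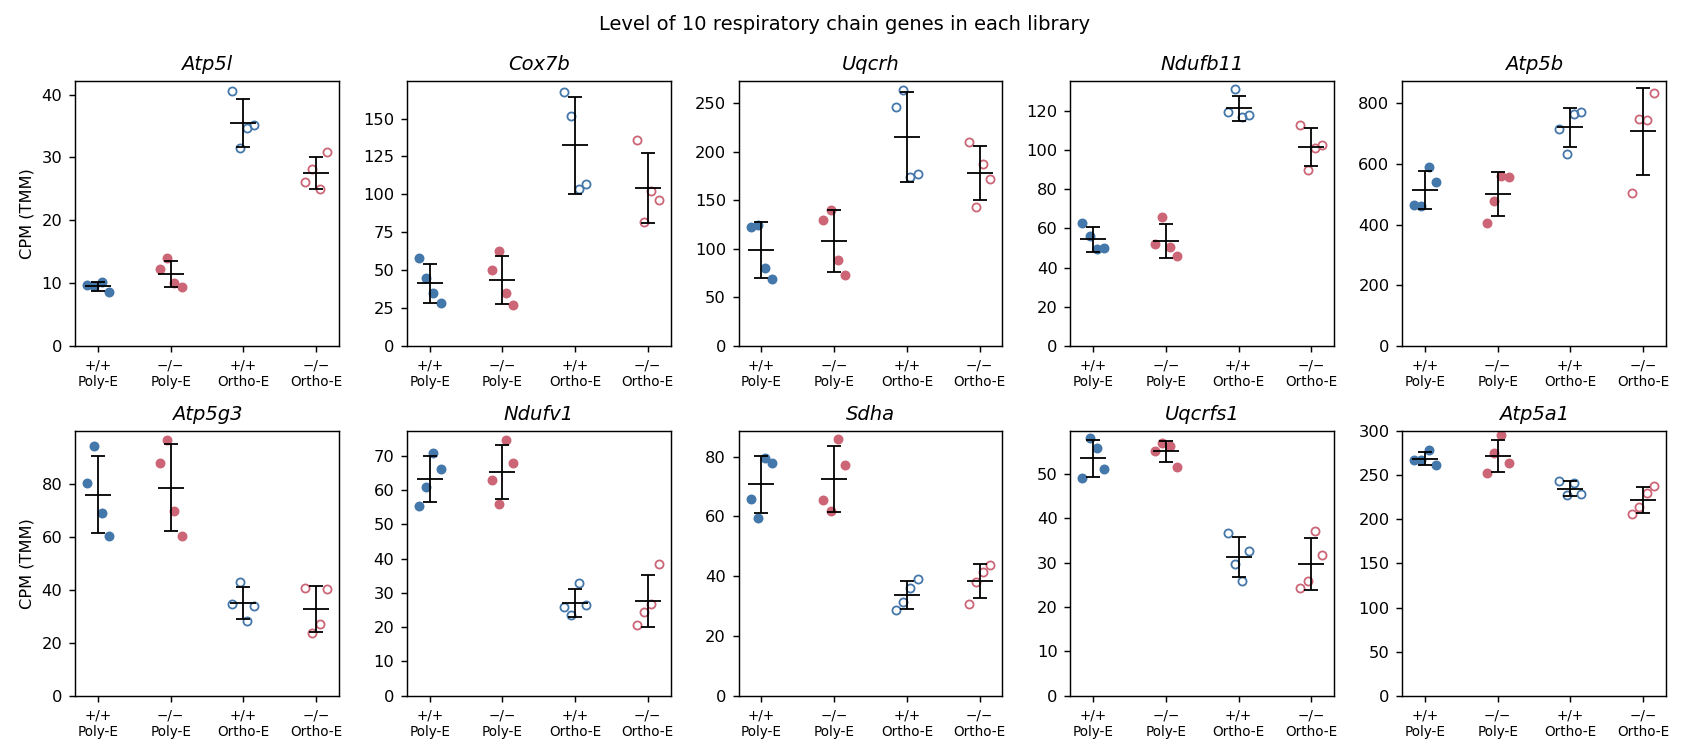
Level of 10 respiratory chain genes (CPM after TMM scaling, from 0) in the 4 groups; points are libraries and bars the mean with the SD, n = 4. *Atp5l*, *Cox7b*, *Uqcrh*, *Ndufb11* and *Atp5b* are higher and *Atp5g3*, *Ndufv1*, *Sdha* and *Uqcrfs1* lower in Ortho-E than in Poly-E cells of both genotypes, while *Atp5a1* has a log2 fold change of −0.16 in *Ypel4*+/+ mice; by library totals the changes of *Uqcrh*, *Ndufb11* and *Atp5b* in *Ypel4*+/+ mice are −0.13, −0.09 and −0.76.

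Sequences upstream of the genes that changed most are shown because the 77 genes are known to share promoter elements for the factors NRF1, the ETS protein GABP and YY1, and because genes of opposite change can be compared by them. They are RefSeq windows of GRCm38.p6, 250 bases before each start, 5′ to 3′ on the strand of the gene, with matches to the searched motifs in capitals: GCATGCG (NRF1), CCGGAAG (ETS), AAGATGG (YY1), CACGTG (E-box), AAGGTCA (nuclear receptors), TATAAA (core promoters), CCAAT (NF-Y) and AGATAA (erythroid zinc finger factors), on both strands. The first is *Atp5l* (chr9:44920743-44920992, minus strand) and the second *Cox7b* (chrX:106015450-106015699, plus strand), which rose most. They are followed by *Atp5g2* (chr15:102671048-102671297, minus strand) and *Ndufv1* (chr19:4012756-4013005, minus strand), which fell.
Atp5l: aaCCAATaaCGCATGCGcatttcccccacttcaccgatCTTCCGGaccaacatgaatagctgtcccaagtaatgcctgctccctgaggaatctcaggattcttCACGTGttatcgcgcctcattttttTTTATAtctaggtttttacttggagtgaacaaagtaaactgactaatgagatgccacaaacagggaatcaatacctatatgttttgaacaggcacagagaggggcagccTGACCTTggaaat
Cox7b: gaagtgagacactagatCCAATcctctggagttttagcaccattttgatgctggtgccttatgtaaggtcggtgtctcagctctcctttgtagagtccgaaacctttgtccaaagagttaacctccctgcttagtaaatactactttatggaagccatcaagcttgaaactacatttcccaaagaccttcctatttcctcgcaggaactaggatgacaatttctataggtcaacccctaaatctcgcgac
Atp5g2: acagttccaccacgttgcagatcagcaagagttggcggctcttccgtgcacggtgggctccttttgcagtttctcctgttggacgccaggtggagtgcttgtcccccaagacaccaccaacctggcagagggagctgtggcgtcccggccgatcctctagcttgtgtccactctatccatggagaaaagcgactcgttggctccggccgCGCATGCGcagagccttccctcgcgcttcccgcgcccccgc
Ndufv1: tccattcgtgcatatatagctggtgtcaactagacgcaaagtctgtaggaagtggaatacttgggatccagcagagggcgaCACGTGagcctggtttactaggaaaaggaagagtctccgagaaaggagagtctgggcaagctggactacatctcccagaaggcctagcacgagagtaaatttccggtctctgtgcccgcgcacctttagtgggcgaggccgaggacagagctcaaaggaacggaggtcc

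The same NRF1 letters stand in the windows of *Atp5l*, which rose, and *Atp5g2*, which fell. *Cox7b* has a CCAAT match and *Ndufv1* an E-box match as the only capitals. RefSeq windows (250 bases before to 50 after a start) were found for 63 of the 77 genes, 68 windows in all. GCATGCG was in 16.2% of these, in 6.65% of the 10858 windows of measured genes and in 3.58% of all 32851 windows. The 11 genes that hold it were 1 that was called higher in *Ypel4*+/+ Ortho-E, 4 that were lower and 6 that were not called. Of all 63 genes with windows, 7 were higher, 22 lower and 34 not called. In 9 of the 11 the copies on the 2 strands overlap as CGCATGCG. The matches of *Atp5l*, *Atp5g2*, *Ndufa8*, *Cox6a1* and *Sdhb* are shown with their flanks on the strand of the gene, from complexes V, V, I, IV and II, with the matched letters in capitals. They lie at chr9:44920966-44920992, minus strand, at chr15:102671071-102671098, minus strand, at chr2:36049330-36049357, minus strand, at chr5:115349102-115349129, minus strand and at chr4:140961207-140961233, plus strand.
Atp5l: aaccaataaCGCATGCGcatttccccc
Atp5g2: gctccggccgCGCATGCGcagagccttc
Ndufa8: tcgctggagaCGCATGCGcagatggtac
Cox6a1: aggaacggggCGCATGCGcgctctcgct
Sdhb: agcccagtggGCATGCGccctacgggc

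CCGGAAG was in 23.5% of the windows of the 77 genes and 18.5% of those of measured genes, AAGATGG in 14.7% and 7.62%, and AAGGTCA in 11.8% and 3.46%. CACGTG (8.82% and 9.91%), TATAAA (8.82% and 6.98%), AGATAA (7.35% and 6.67%) and CCAAT (41.2% and 38.1%) were closer to the measured genes. The windows of the 77 genes had a median GC content of 56.2%, those of measured genes 59.6%. A match is a stretch of letters, and no binding was measured here.

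The other genes of the chain and its surroundings were taken from fixed lists. Of 47 tested genes for further chain proteins and assembly factors, 6 were higher and 12 lower in *Ypel4*+/+ Ortho-E (median −0.51; by totals 0 higher, 38 lower, median −1.80). *Cycs*, cytochrome c itself, changed by −1.21 and *Cyc1*, its partner in complex III, by −0.72 (−2.49 and −2.01 by totals), while *Atpif1*, the inhibitor of the synthase, and *Usmg5*, a small synthase subunit, changed by 0.67 and 0.60 (called; −0.61 and −0.68 by totals). *Ndufab1*, the acyl carrier protein that is also part of complex I and falls outside the name rule, changed by −1.66 (−2.95 by totals). Of 18 citric acid cycle genes 3 were higher and 10 lower (median −0.76; by totals 0 and 17, median −2.03), with *Cs*, citrate synthase, at −1.66 (−2.95 by totals) and *Ogdh*, of the oxoglutarate dehydrogenase, at 0.75 (−0.54 by totals).

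The subunits from mitochondrial DNA could be read only in part, since 6 of their 13 genes had 0 counts in every group. Of the 7 tested, 5 were higher in *Ypel4*+/+ Ortho-E and none lower with TMM (median 0.47), but all 7 were lower by totals (median −0.81). *mt-Co1*, the catalytic subunit of complex IV, changed by 0.91, or −0.37 by totals. In the same mice the 77 nuclear genes had a median of −0.14, and their partners in the mitochondrial ribosome (75 tested) had 1 higher and 45 lower, with a median of −1.18 (by totals 0 and 70, median −2.45). Cytosolic ribosomal protein genes (82 tested) had 5 higher and 37 lower, with a median of −0.33 (by totals 0 and 79, median −1.62). Of 13 regulators of mitochondrial gene expression 2 were higher and 8 lower (median −1.29; by totals 1 and 10, median −2.57). *Nrf1* changed by −1.11, *Gabpa* and *Gabpb1*, which together form GABP, by −1.49 and −2.03, and *Tfam*, which packs mitochondrial DNA and activates its transcription, by −2.07 (−2.39, −2.77, −3.32 and −3.35 by totals). *Tfb2m*, its partner at mitochondrial promoters, changed by 1.67 (0.38 by totals), and *Polg2*, of the same list, by 2.44 (1.16 by totals). *Ppargc1b* had 0 counts in every group, and *Ppargc1a* in both Poly-E groups.

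Between genotypes no gene of the 77 was called, in Poly-E, in Ortho-E or for the interaction of genotype and population, by edgeR or by DESeq2. At an unadjusted p under 0.05 edgeR gave 1, 4 and 3 genes of the 77, against 2.19%, 3.68% and 2.73% of all genes. DESeq2 gave 0, 4 and 2, against 1.4%, 2.08% and 1.92%. Few genes of any kind were called, 0.00807% in Poly-E, 0.0285% in Ortho-E and 0% for the interaction. In Poly-E cells the median log2 fold change of the 77 genes was 0.07 against 0.00 for all genes, and 61 were positive. In Ortho-E cells it was −0.11 against 0.01, and 18 were positive. For the interaction it was −0.20 against 0.01, and 14 were positive. Cytosolic ribosomal protein genes had medians of 0.17, −0.15 and −0.33 in Poly-E, in Ortho-E and for the interaction. Those of the mitochondrial ribosome had 0.09, −0.08 and −0.10, and citric acid cycle genes 0.06, 0.06 and −0.04.

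The small shifts of the 77 genes depended on which libraries entered. With the replicate number as a block the medians were 0.07 (62 positive) in Poly-E and −0.11 (21 positive) in Ortho-E cells. For the interaction, with genotype and replicate number together as the block, the median was −0.20 (13 positive). A term for replicates 1 and 2 against 3 and 4 left 0.06 (61 positive) in Poly-E and −0.11 (19 positive) in Ortho-E cells. With replicates 3 and 4 alone, a choice made after seeing the data, the medians were 0.01 in Poly-E (44 of 77 positive) and 0.00 in Ortho-E cells (39 positive), and with replicates 1 and 2 alone 0.11 and −0.24. With 1 library left out the Poly-E median ranged from 0.02 (without *Ypel4*−/− Poly-E replicate 2, 40 positive; also without *Ypel4*+/+ Poly-E replicate 4, 44 positive) to 0.14 (without *Ypel4*−/− Poly-E replicate 4), and was 0.11 without *Ypel4*−/− Poly-E replicate 3 and 0.12 without *Ypel4*+/+ Poly-E replicate 2. The Ortho-E median ranged from −0.04 (without *Ypel4*+/+ Ortho-E replicate 1) to −0.17 (without *Ypel4*−/− Ortho-E replicate 4). The interaction median ranged from −0.09 (without *Ypel4*+/+ Poly-E replicate 4) to −0.28 (without *Ypel4*−/− Ortho-E replicate 4), and was −0.10 without *Ypel4*+/+ Poly-E replicate 1, −0.11 without *Ypel4*−/− Poly-E replicate 1 and −0.13 without *Ypel4*−/− Poly-E replicate 2. The groups did not overlap for 3 genes that were higher in *Ypel4*−/− Poly-E (1.26% of all genes) and for 3 that were lower in *Ypel4*−/− Ortho-E cells (1.03% of all genes), and for none in the other direction (0.831% and 1.32%).

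No gene of the 77 had an edgeR adjusted p under 0.99 in these 3 tests, and those with the smallest p are described. *Ndufb4*, an accessory subunit of complex I, was at 3.23, 2.32, 1.65 and 2.43 CPM in *Ypel4*+/+ and 1.68, 1.01, 1.24 and 1.54 CPM in *Ypel4*−/− Poly-E libraries (log2 fold change −0.71, standard error 0.31). It rests on 83 and 55 counts, and 35.2% of its sequence words are shared with other genes. In Ortho-E cells its order was the reverse, 0.845, 1.71, 1.67 and 0.466 CPM in *Ypel4*+/+ and 3.6, 1.85, 1.31 and 2.12 CPM in *Ypel4*−/− libraries, and its interaction of 1.71 (standard error 0.63) was the one with the smallest p. *Uqcrc2* and *Ndufa13*, a subunit of complex I that overlaps another gene with 30.2% of its exonic bases, followed in Poly-E cells with log2 fold changes of 0.25 and 0.24 (standard errors 0.12 and 0.12).

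In Ortho-E cells *Ndufb7*, a subunit on the outer face of complex I, was at 25.8, 25.7, 14.7 and 19.6 CPM in *Ypel4*+/+ and 15.7, 11.9, 14.1 and 14.7 CPM in *Ypel4*−/− libraries. Replicates 1 and 2 were the highest of the *Ypel4*+/+ libraries, and replicate 3 overlapped the *Ypel4*−/− libraries (log2 fold change −0.56, standard error 0.20, edgeR adjusted p = 0.996, the smallest of the 77). *Cox5b* changed by −0.36 and *Atp5l* by −0.35 (standard errors 0.14 and 0.15). For *Atp5l* the 4 *Ypel4*−/− Ortho-E libraries all lay below the 4 *Ypel4*+/+ libraries, with 24.9 to 30.9 against 31.4 to 40.6 CPM, while in Poly-E cells the groups overlapped, with 9.46 to 14 against 8.52 to 10.2 CPM. Its interaction was −0.60 and that of *Ndufb7* −0.61 (standard errors 0.23 and 0.26).

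**Figure D4:**
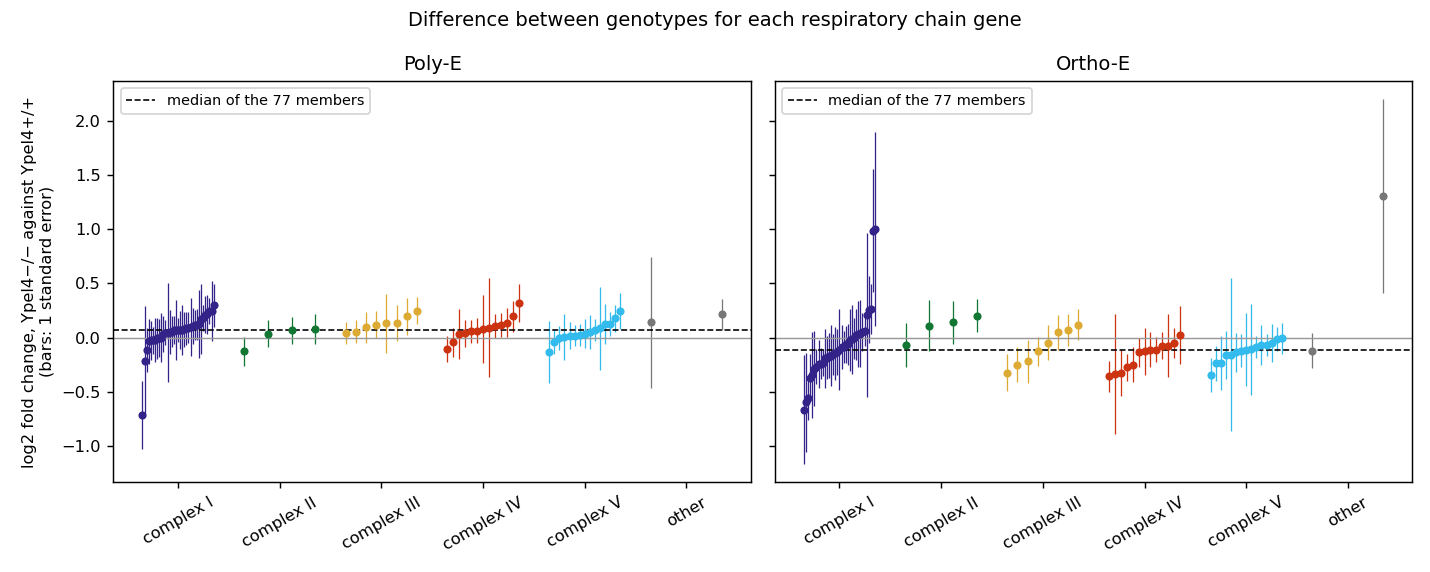
Log2 fold change of *Ypel4*−/− against *Ypel4*+/+ mice for each of the 77 genes, by complex, in Poly-E (left) and Ortho-E cells (right), with TMM scaling; points are genes, bars 1 standard error and the dashed line the median of the 77. No gene is called in either population, the medians lie at 0.07 and −0.11, and with replicates 3 and 4 alone they are 0.01 and 0.00; by library totals they are 0.12 and −0.08.

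The replicate split was seen in many of the 77 genes. In *Ypel4*+/+ Poly-E libraries 32 of the 77 were higher in both of replicates 1 and 2 than in both of replicates 3 and 4, and 16 were lower. Of the 13318 genes with at least 10 counts, 19.2% were higher and 28.1% lower. More of the 77 were thus higher than lower, while the balance of all genes was the opposite. This held in each group but *Ypel4*−/− Ortho-E. The counts were 42 and 12 in *Ypel4*−/− Poly-E libraries (18.6% and 25.1% of all genes), 33 and 12 in *Ypel4*+/+ Ortho-E (13.3% and 24.7%) and 3 and 24 in *Ypel4*−/− Ortho-E libraries (8.01% and 25.5%). *Ndufa11*, a subunit that anchors the membrane arm of complex I, was at 56.2, 49.5, 27.3 and 24.3 CPM in *Ypel4*+/+ Poly-E and 53.5, 60.3, 21.8 and 26 CPM in *Ypel4*−/− Poly-E libraries. In *Ypel4*+/+ Ortho-E libraries it was at 50.3, 57.1, 19 and 20.1 CPM, and in *Ypel4*−/− Ortho-E, where replicate 1 alone was high, at 33.7, 18.5, 18.7 and 18.5 CPM. *Atp5e*, the epsilon subunit of the synthase, went the other way, with 13.1, 23, 43.9 and 31.4 CPM in *Ypel4*+/+ Poly-E and 10.3, 31.5, 31.8 and 34 CPM in *Ypel4*−/− Ortho-E libraries. *Cox4i1* did so too, with 50.8, 67.7, 104 and 90.6 CPM in *Ypel4*+/+ Poly-E and 49.9, 64.6, 104 and 111 CPM in *Ypel4*+/+ Ortho-E libraries. As log2 differences of replicates 1 and 2 over 3 and 4, *Cox7a2l* was at 1.16, 1.06, 1.29 and 0.90 in *Ypel4*+/+ Poly-E, *Ypel4*−/− Poly-E, *Ypel4*+/+ Ortho-E and *Ypel4*−/− Ortho-E libraries. These 4 genes were named after their values were seen, and what sets the replicates apart was not tested. Each fold change from Poly-E to Ortho-E of *Ndufa11*, *Cox7a2l*, *Atp5e* and *Cox4i1* in *Ypel4*+/+ mice had a standard error of 0.31 or more, and none was called.

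**Figure D5:**
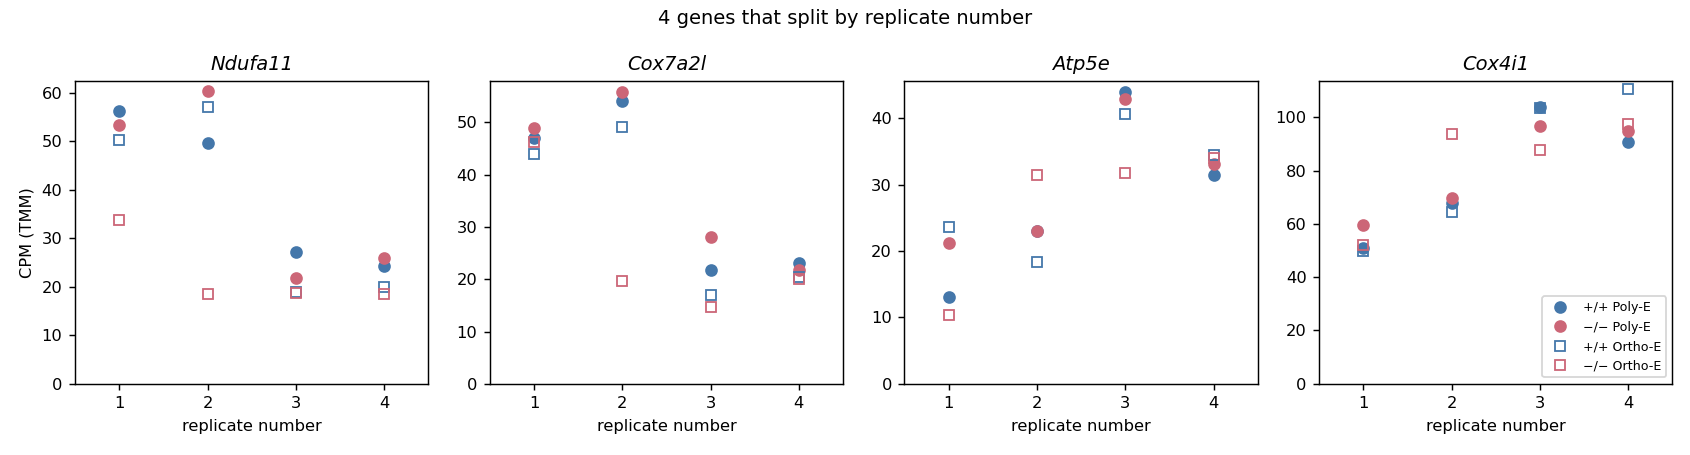
Level of *Ndufa11*, *Cox7a2l*, *Atp5e* and *Cox4i1* (CPM after TMM scaling, from 0) by replicate number in the 4 groups; each point is 1 library. Replicates 1 and 2 are high for *Ndufa11* and *Cox7a2l* and low for *Atp5e* and *Cox4i1* in *Ypel4*+/+ libraries and *Ypel4*−/− Poly-E libraries, and *Ypel4*−/− Ortho-E replicate 2 lies with replicates 3 and 4.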

How the data were processed

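RNA from 16 sorted cell samples was sequenced (TruSeq RNA v2). The authors deposited counts per gene and library, made with featureCounts 1.6.4 per the file headers (exons joined by gene, read pairs, no strand, GRCm38); these counts are not normalized. Groups and replicate numbers came from the sample titles. The deposited library names give a further number common to the Poly-E and Ortho-E library of each replicate, read here as the mouse.

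Fits were made in edgeR 4.0.16 (R 4.3.3; robust quasi-likelihood F test with TMM factors) on genes whose counts summed to at least 10 in the fitted libraries, with Benjamini-Hochberg adjustment over all genes and a threshold of 0.05. The population comparisons and the genotype comparisons used 8 libraries each and the interaction 16. Standard errors came from the same fits. The fits were tested on simulated data. P-values come from setting the difference between groups against the spread between these libraries within groups. Libraries held 2670173 to 12451234 counts, and precision depends on this depth and on the spread between replicates.

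The 77 genes and all lists were chosen with earlier results of these data known. Genes were named by rule: in each complex the highest and lowest fold change in *Ypel4*+/+ mice (mean of at least 20 counts per library) and the highest level per kb, the core subunits, the families with several forms, and the 3 smallest p values of each genotype test. A gene within this rule is not reported here by name. Shared sequence was counted from GENCODE M21 transcripts in words of 75 bases, and overlap from its exons.

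Alternatives were DESeq2 1.42.0, its size factors, library totals, filterByExpr, no filter, all 16 libraries, globin genes left out, the replicate number as a block, a term for replicates 1 and 2 against 3 and 4 in the genotype comparisons, and each library left out; fits on replicates 1 and 2 or 3 and 4 alone were added after seeing the data. Over 5956 genes, same-numbered Poly-E and Ortho-E libraries had correlated deviations from their group means (r from 0.38 to 0.549 in *Ypel4*+/+ and 0.0862 to 0.451 in *Ypel4*−/− mice). Libraries of other numbers reached 0.37 in *Ypel4*+/+ mice (Poly-E replicate 3 with Ortho-E replicate 4). *Ypel4*−/− Poly-E replicate 2 had 0.236 with Ortho-E replicate 1 and 0.0862 with its own number. The replicate split thus also enters these values. They carry the number of 1 mouse and are read as pairs. The main fits did not use this pairing and treated the libraries as independent. Only the blocked fits of the population comparisons and of the interaction used it. For the interaction the block was genotype and replicate number together. In the genotype comparisons the block joined different mice that share a replicate number. Across genotypes the same-numbered correlations were 0.196 to 0.57 in Poly-E and −0.0866 to 0.263 in Ortho-E cells. Those of other numbers were −0.509 to 0.54 in Poly-E and −0.285 to 0.224 in Ortho-E cells.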

Additional observations from a re-analysis of the deposited data

Results flagged for a closer look

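In 4 of 152 groups of 4 libraries tested over the 37 named genes and the summed share of the 77 genes, 1 library lay far from the other 3 (its gap to the nearest of them, divided by the range, was above Dixon's critical value, which chance gives in about 1 in 20 groups). *Cox6a1*, of complex IV, was at 86.5 CPM in *Ypel4*−/− Poly-E replicate 1 and at 124.7 to 130.8 CPM in the others. *Ndufs7*, of the complex I core, was at 20.7 CPM in the same library and at 17.0 to 17.4 CPM in the others. *Cox7a2* was at 85.7 CPM in *Ypel4*−/− Ortho-E replicate 4 against 68.6 to 70.9 CPM, and *Cox7a2l* at 46.3 CPM in *Ypel4*−/− Ortho-E replicate 1 against 14.8 to 20.1 CPM.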

How the results depend on the processing

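Library totals changed most: in *Ypel4*+/+ mice 1 gene was then higher and 69 lower in Ortho-E, in *Ypel4*−/− mice 0 and 69, and *Atp5b* (−0.76), *Cox4i1* (−1.17), *Cox6a1* (−1.13), *Cox7a2* (−1.05), *Ndufa4* (−1.26), *Ndufb9* (−0.55), *Ndufs1* (−0.99), *Uqcrc2* (−0.89) and *Uqcrh* (−0.13) reversed their log2 fold change. The number of genes higher in *Ypel4*+/+ Ortho-E was 20 with DESeq2 size factors, 19 with DESeq2 and 20 of 74 with filterByExpr, and 10 to 19 with a library left out (19 without *Ypel4*+/+ Poly-E replicate 1; 17 to 24 lower). In *Ypel4*−/− mice it was 7 with all 16 libraries, and 20 genes were lower with replicates 3 and 4 only. Genes near 0 changed sign: with filterByExpr *Atp5a1* (0.026), *Cox5b* (0.14), *Cox6b1* (0.093), *Cox7a2l* (0.028), *Cox8a* (0.024), *Sdhd* (0.048) and *Uqcrc1* (0.16); with DESeq2 size factors *Cox5b* (0.094), *Cox6b1* (0.045), *Sdhd* (0.00089) and *Uqcrc1* (0.12); with DESeq2 *Cox5b* (0.094), *Cox6b1* (0.047), *Cox7a2l* (0.0096), *Sdhd* (0.0050) and *Uqcrc1* (0.12); and with replicates 1 and 2 only *Cox5b* (0.098), *Cox6b1* (0.060), *Sdhd* (0.21), *Uqcrc1* (0.11) and *Ndufa4* (−0.015). *Ndufa4* was at −0.019 with no filter and −0.0035 with all 16 libraries. With a library left out the ranges were −0.050 to 0.39 for *Cox4i1*, −0.15 to 0.13 for *Cox5b*, −0.20 to 0.080 for *Cox6b1*, −0.47 to 0.015 for *Cox6b2*, −0.39 to 0.20 for *Cox7a2l*, −0.21 to 0.0097 for *Cox8a*, −0.040 to 0.20 for *Ndufa4*, −0.26 to 0.072 for *Sdhd* and −0.079 to 0.14 for *Uqcrc1*. Without globin counts the shares were 0.580% (*Ypel4*+/+ Poly-E), 0.284% (*Ypel4*+/+ Ortho-E) and 0.264% (*Ypel4*−/− Ortho-E), and without globin and mitochondrial genome counts 0.584%, 0.286% and 0.266%. The cause of these changes was not tested. No alternative called a gene of the 77 between genotypes or for the interaction.

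With the replicate number as a block, 16 genes were higher and 27 lower in *Ypel4*+/+ Ortho-E and 16 and 35 in *Ypel4*−/− Ortho-E. Between genotypes 0 were called, with 4 in Poly-E and 10 in Ortho-E at an unadjusted p under 0.05. These are 5.19% and 13% of the 77 against 3.29% and 5.44% of all genes. For the interaction, with genotype and replicate number together as the block, 0 were called. There 12 had an unadjusted p under 0.05, or 15.6% against 3.52%. Beside the block values given above for *Ndufs1*, *Ndufs8*, *Ndufv2*, *Sdhc* and *Cox7a2*, the block changed no call of a named gene. *Ndufs1*, *Cox7a2* and *Cox6a1* also passed with DESeq2, DESeq2 size factors and filterByExpr (0.29 to 0.48), *Ndufv2* and *Ndufs8* with no filter and *Ndufs8* with all 16 libraries, while *Uqcrc2* did not pass with no filter (0.35). Of the fits with a library left out, *Ndufs1* passed in 5 (up to 0.43), *Cox7a2* in 4 (up to 0.39), *Cox6a1* in 1 (0.38, without *Ypel4*+/+ Poly-E replicate 3), *Ndufs8* in 1 (−0.74) and *Ndufv2* in 1 (−0.60). Low counts limit *Ndufb5*, *Atp5g2*, *Ndufb4*, *Atp5sl* and *Ndufb2*, and depth cannot show small genotype differences.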
